A study of Mus musculus with 13 samples.

Results

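The comparison set all 5 arrays of Troy-sorted gastric cells against both arrays of whole corpus glands, 7 of the 13 arrays of a mouse series, and asked what the sorted chief and parietal cells had in common. The mice carried the Troy-EGFP-ires-CreERT2 allele, in which a cassette for a green fluorescent protein and an inducible Cre recombinase sits at the start of Tnfrsf19, the gene for the receptor Troy, so that fluorescence reports Troy expression. Corpus glands were freed with EDTA, broken into single cells with trypsin and sorted by fluorescence into chief cells (3 arrays, a to c) and parietal cells (2 arrays, a and b), at about 100000 cells from 10 mice for each sorted array. The glands (2 arrays, a and b) were processed directly, without trypsin or sorting, and their labels do not state a genotype or a number of mice for them. No array recorded Troy-negative cells that had been sorted in the same way, so cell type and handling cannot be told apart in any difference described here. The remaining 6 arrays came from organoids grown from sorted chief cells. Age and the zygosity of the reporter allele were not given in the sources used here, and nothing says whether arrays with the same letter came from the same animals. The p-values of the comparison with the glands measure the spread between arrays within the sorted and the gland group. Chief and parietal arrays were fitted together as the sorted group, so any difference between these cell types counts as spread within it.

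Values were log2 RMA levels, and array medians over all 35556 probesets lay between 5.15 and 5.30. A gene was called when limma's adjusted p was under 0.05 and all 5 sorted arrays lay on one side of both gland arrays. Of 18820 genes, 24 were called higher in the sorted cells (0.128%) and 149 lower (0.792%), 0.919% together. All 5 sorted arrays lay above both gland arrays for 2393 genes (12.7%) and below them for 2116 genes (11.2%), whether or not the adjusted p passed, the median difference over all genes was 0.09, and 60% of differences were above 0. The counts without overlap given for each list below are to be read beside these 12.7% and 11.2%. The counts of called genes depend on single arrays. They were 0 higher and 12 lower without gland array b, 4 and 26 without chief array c, 5 and 46 without parietal array a, and 9 and 32 without parietal array b. They were larger, at 65 and 273, without chief array a, at 47 and 179 without chief array b, and at 31 and 223 without gland array a. Of the 173 called genes, 10 kept the call in all 7 of these fits.

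Several arrays stood apart from others with the same label. Across genes, Pearson's r between chief array c and parietal arrays a and b was 0.979 and 0.982, but 0.950 and 0.961 between it and chief arrays a and b. Chief array a correlated with gland arrays a and b at 0.978 and 0.966, and with chief array b at 0.953. Chief array b held Krt5, a keratin of squamous epithelium, at 11.85, against 4.25 to 6.37 in the other sorted arrays and 4.30 in both gland arrays. The labelled cell types were measured in every array. Pgc, the pepsinogen C precursor of chief cells, lay between 13.14 and 13.62 in all 7 arrays, and Atp4b, the beta subunit of the parietal proton pump, between 12.65 and 13.29. Neither gene separated the sorted arrays from the glands, and 0 of 11 chief cell genes and 0 of 16 parietal cell genes were called. A call needs chief and parietal arrays on the same side of the glands, so genes of only 1 of these cell types can hardly pass. Between chief and parietal arrays, 0 of 18820 genes passed an adjusted p of 0.05 in limma (smallest 0.348), while 2279 had an unadjusted p under 0.05.

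Troy belongs to the tumour necrosis factor receptor family and marks a subset of chief and parietal cells at the gland base. It is a Wnt target, as are Lgr5, a receptor for R-spondins, Axin2, a scaffold of the complex that destroys beta-catenin, and Sp5, a transcription factor. Wnt signals reach their targets through beta-catenin and TCF factors on DNA. Dissociated cells are known to switch on immediate early genes, many of which are read from promoters with CRE, CArG or AP-1 motifs within minutes of a stimulus. Glands also hold pit, mucous neck, tuft and enteroendocrine cells and their progenitors, all of which a Troy gate can leave behind.

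Promoter windows from RefSeq (build GRCm38.p6, 250 bases before to 50 after a start) were searched on both strands for the CRE TGACGTCA, the AP-1 motif TGACTCA, the CArG box and the TCF motif ATCAAAG. The TCF motif was added after the values had been seen. Windows were given for 20 of the 24 genes called higher. The sequences below are those of called genes with a CRE or a TCF motif, shown 5′ to 3′ on the strand of the gene with the motif in capitals, and in Sp5 the capitals are the motif's reverse complement.

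Dusp1, CRE 143 bases before the start, chr17:26508568-26508655, minus strand: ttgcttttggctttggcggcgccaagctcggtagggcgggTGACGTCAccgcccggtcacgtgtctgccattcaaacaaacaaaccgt
Plk2, CRE 62 bases before the start, chr13:110394942-110395029, plus strand: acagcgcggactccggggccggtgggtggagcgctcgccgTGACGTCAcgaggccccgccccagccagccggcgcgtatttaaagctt
Tnfrsf19, TCF motif 202 bases before 1 of its starts, chr14:61038143-61038229, minus strand: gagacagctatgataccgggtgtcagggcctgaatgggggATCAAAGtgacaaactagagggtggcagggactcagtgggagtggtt
Sp5, TCF motif 104 bases before the start, chr2:70474779-70474865, plus strand: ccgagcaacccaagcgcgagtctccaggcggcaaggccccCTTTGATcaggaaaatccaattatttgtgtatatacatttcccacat

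The CRE was present in the windows of 2 of the 20 called genes, Dusp1 and Plk2, and in 2.03% of all 27025 genes with a window. TCF motifs were found in Tnfrsf19 and Sp5 and in 4.29% of all genes. An AP-1 motif was found in Csrnp1 and Guca2a and in 5.95% of all genes. Among 33 of the 39 AP-1 and early response genes with a window, 3 had a CRE (Btg2, Errfi1 and Maff), 3 had a CArG box (Egr2, Srf and Zfp36) and 1 had an AP-1 motif. The CArG box was in 1.81% of all genes. These matches describe letters in a short window, and no binding was measured.

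Troy itself, the gene behind the sort, was higher in every sorted array. Tnfrsf19 was at 8.53, 7.43 and 7.96 in chief arrays a, b and c and at 8.71 and 8.32 in parietal arrays a and b, against 5.40 and 4.92 in gland arrays a and b. The lowest sorted array lay 2.03 above the higher gland array. The difference of 3.03 (SE 0.34, 8.17-fold) had an adjusted p of 0.0131 in limma, and it checks the labels, since the gate selected on this gene's reporter. Without gland array b the adjusted p was 0.135. In the separate contrasts, chief minus glands was 2.81 and parietal minus glands 3.35.

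Lgr5 showed a difference of similar size. Its levels were 10.32, 10.58 and 9.71 in chief arrays, 9.95 and 9.45 in parietal arrays, and 7.31 and 5.73 in gland arrays. Both sorted cell types were above the glands, which differed from each other by more than the sorted arrays did. The difference was 3.48 (SE 0.44, 11.2-fold, limma adjusted p = 0.0186). Its adjusted p passed 0.05 in 4 of the 7 fits that left out 1 array, and was lost without chief c, parietal a or gland b. Axin2 was at 6.98, 7.10 and 6.20 in chief arrays, 6.75 and 6.30 in parietal arrays and 5.25 and 4.30 in gland arrays, a difference of 1.89 (SE 0.33, adjusted p = 0.0481). Sp5 was at 5.40, 5.50 and 5.35, then 5.50 and 5.23, against 4.48 and 4.50, a difference of 0.91 (SE 0.15, adjusted p = 0.0388). The calls of Axin2 and Sp5 each held in 2 of the 7 fits with 1 array left out.

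Other Wnt pathway genes moved less or unevenly. Of 14 Troy, R-spondin, Lgr, Frizzled and Lrp genes, 2 were called higher and 0 lower. These 2 were Tnfrsf19, whose reporter set the gate, and Lgr5, both described above. With them, 6 had all sorted arrays above the glands, and the median difference was 0.54 against 0.09 over all genes. Of 16 Wnt targets, 2 were called higher, the Axin2 and Sp5 described above, and 0 lower. Of the 16, 7 lay above and 1 below without overlap, and the median was 0.60. Rnf43 and Znrf3, ligases that remove Frizzled receptors, had differences of 0.91 and 0.90 (limma adjusted p = 0.0782 and 0.113), with no overlap between groups. Lgr4, the relative of Lgr5, was at 9.42 to 9.97 in the sorted arrays and 9.90 and 10.34 in the glands, and Lrp5, a Wnt co-receptor, had a difference of -0.99 (adjusted p = 0.329). Smoc2 and Nkd1 differed by 1.52 and 1.05 (adjusted p = 0.189 and 0.239), and in both the parietal arrays were closer to the glands than chief arrays a and b. Among 15 candidate gastric stem cell genes, 1 was called. Lrig1, a brake on EGF receptors, was at 10.25, 10.18 and 10.71 in chief, 10.90 and 10.68 in parietal and 9.33 and 8.51 in gland arrays (difference 1.62, SE 0.28, adjusted p = 0.0454), and its call held in 3 of the 7 fits. Of 14 other TNF receptor family genes 0 were called. Among them 3 lay above and 5 below the glands, against 12.7% and 11.2% of all genes. Tnfrsf1b, a receptor for TNF itself, had a difference of -2.06 (adjusted p = 0.0826).

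**Figure D1:**
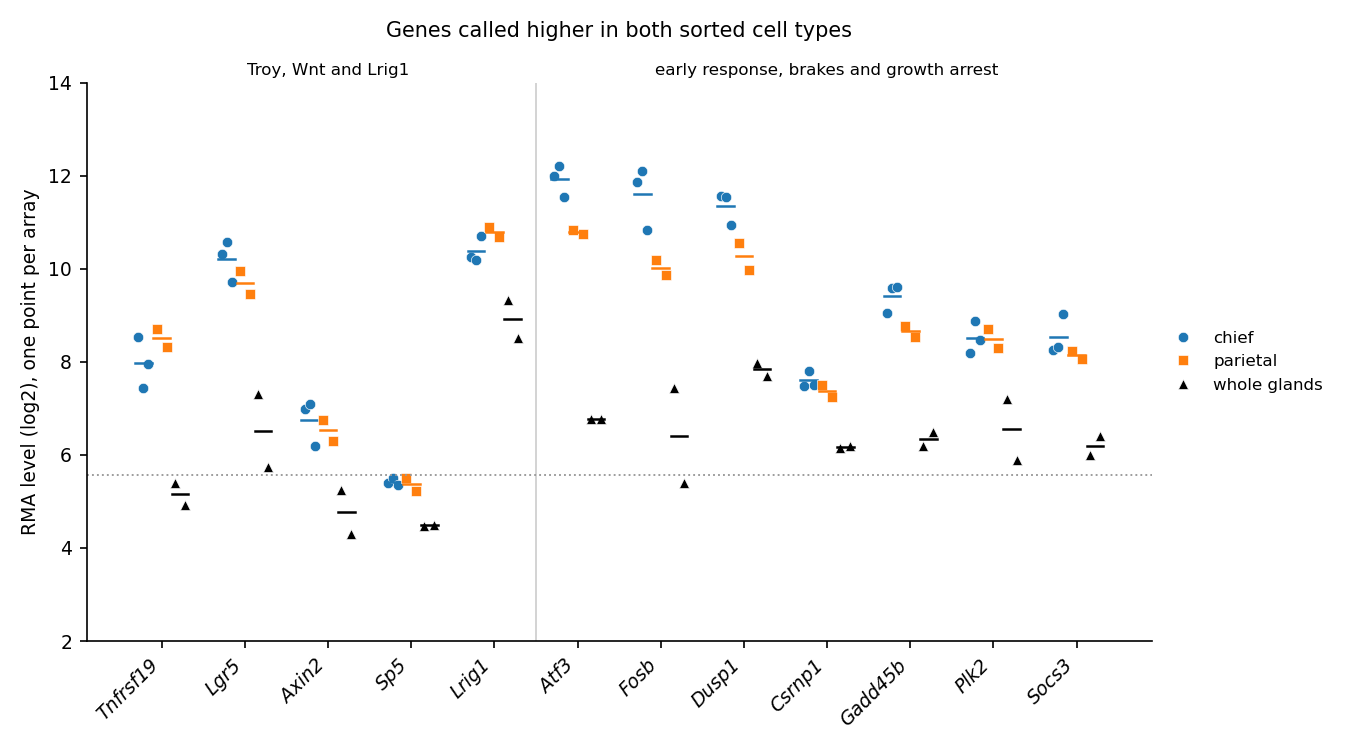
Log2 RMA levels of 12 genes called higher in the sorted cells, 1 point per array (circles chief, squares parietal, triangles whole glands) with a bar at each group mean; the dotted line is the median level of all genes. All 5 sorted points lie above both gland points for each gene, and the chief points of Atf3, Fosb and Dusp1 lie above the parietal ones.

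The largest positive differences among called genes were those of Atf3, Fosb and Fam71a. Atf3, a stress-induced transcription factor that pairs with Jun proteins, was at 12.00, 12.21 and 11.55 in chief arrays, 10.83 and 10.74 in parietal arrays and 6.78 in both gland arrays. The groups were separated by 3.96 between the lowest sorted array and the glands. Its difference of 4.69 (SE 0.41, 25.7-fold, limma adjusted p = 0.00336) was the largest of the 3. Leaving out gland b gave an adjusted p of 0.0648, and the call held in the other 6 fits. Fosb, a Fos family partner of Jun, was at 11.86, 12.10 and 10.84, then 10.18 and 9.86, against 7.43 and 5.39 (difference 4.56, SE 0.73, adjusted p = 0.0344). Fosb kept its call in 3 of the 7 fits. Fam71a, the gene next to Atf3 on chromosome 1 in RefSeq's order, followed it, at 9.63, 9.89 and 9.24, then 8.20 and 7.60, against 4.52 and 4.50 (difference 4.40, SE 0.59, adjusted p = 0.0211). Whether both probesets read 1 transcript was not tested.

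Every chief array was above every parietal array in Atf3, Fosb and Fam71a, and also in Dusp1, Gadd45b, Socs3 and Mir23b, which are described further on. The chief minus parietal difference was 1.14 for Atf3, 1.58 for Fosb, 1.69 for Fam71a and 1.08 for Dusp1. None of these 4 passed the test across all genes (limma adjusted p = 0.348, 0.373, 0.348 and 0.348).

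Across the AP-1 list, 2 of 11 genes were called higher, 0 lower, and 6 lay above the glands without overlap, with a median of 1.24. Jun, the central AP-1 subunit, was at 12.11, 12.34 and 11.23 in chief, 11.05 and 10.81 in parietal and 9.49 and 9.50 in gland arrays. These groups did not overlap, yet the difference of 2.01 had an adjusted p of 0.0826. Fos, its usual partner, differed by 1.99 (adjusted p = 0.204) and Jund by 1.28 (adjusted p = 0.111). Among 28 early response genes 1 was called higher and 0 lower, 12 lay above and 1 below without overlap, and the median was 0.62. Csrnp1, a nuclear protein induced by AXIN1 and serum, was the called gene, at 7.48, 7.81 and 7.51, then 7.51 and 7.25, against 6.14 and 6.20 (difference 1.34, SE 0.18, adjusted p = 0.0207), in 3 of the 7 fits. Egr1 and Nr4a1, early response transcription factors, had differences of 2.41 and 2.76 that missed the threshold (adjusted p = 0.113 and 0.227). Their levels in chief arrays a and b, 11.08 and 11.64 for Egr1 and 10.34 and 11.27 for Nr4a1, were above those of chief array c, 9.99 and 7.98. Klf4, a zinc finger factor of the same list, lay below the glands, with a difference of -1.90 (adjusted p = 0.194).

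Some genes that damp these signals were also higher. Dusp1, a phosphatase that switches off MAP kinases, was at 11.56, 11.55 and 10.94 in chief, 10.56 and 9.98 in parietal and 7.97 and 7.70 in gland arrays (difference 3.08, SE 0.42, 8.47-fold, adjusted p = 0.0226), and kept its call in 3 of the 7 fits. It was 1 of 14 MAP kinase brakes called, and 6 of them lay above the glands. Dusp8, another phosphatase of the family, differed by 1.71 (adjusted p = 0.105). Socs3, which blocks cytokine receptor signalling, was at 8.26, 8.32 and 9.03, then 8.24 and 8.07, against 6.00 and 6.40 (difference 2.18, SE 0.27, adjusted p = 0.0160), and its second probeset differed by 1.18. Its call was lost without either gland array. Gadd45b, a stress protein of growth arrest, was at 9.04, 9.58 and 9.60, then 8.78 and 8.53, against 6.20 and 6.50 (difference 2.76, SE 0.32, 6.76-fold, adjusted p = 0.0139), and lost its call without gland b. Plk2, a kinase induced by stress, differed by 1.96 (SE 0.35, adjusted p = 0.0485), and its call held in 1 of the 7 fits. These 2 were the called genes among 15 growth arrest genes, of which 5 lay above the glands. Gadd45g missed the threshold at 1.27 (adjusted p = 0.0660).

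Heat shock genes lay above the glands without passing the test for any single gene. Of 12, 8 had all sorted arrays above both gland arrays, 0 were called, and the median difference was 0.82. Hsph1 and Dnajb1, both chaperones, differed by 1.06 and 1.34 (limma adjusted p = 0.0832 and 0.0983). Of 12 integrated stress response genes 0 were called and 4 lay above. Ppp1r15a, the phosphatase subunit that reverses that response, differed by 1.92 (adjusted p = 0.0703). NF-kB targets moved little, with 0 of 14 called, 2 above the glands (12.7% of all genes lay above) and a median of 0.26.

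The remaining genes called higher belong to no single pathway. Ccnjl, a cyclin J relative, differed by 2.12, Cachd1 by 1.93, Guca2a, the guanylin precursor, by 1.89, and Pappa, a protease that releases insulin-like growth factors, by 1.74. The differences of Vgll4, a TEAD cofactor (1.43), Dusp22 (1.25), Atg101, an autophagy factor (1.21), Rora, a nuclear receptor (1.21), Irs2, an insulin receptor adaptor (1.12), and Tubb2b, a tubulin (1.04), were smaller. Their adjusted p in limma ran from 0.0186 for Pappa to 0.0454 for Irs2 and Vgll4, and Irs2 lost its call in each of the 7 fits with 1 array left out.

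MicroRNA genes were dim on this array, with a median level of 3.78 over 306 genes, of which 264 had a hairpin in RefSeq's table. 1 of them was called. Mir23b was at 6.75, 6.77 and 7.03 in chief, 6.69 and 6.64 in parietal and 5.78 and 5.53 in gland arrays (difference 1.12, SE 0.17, adjusted p = 0.0313), in 2 of the 7 fits. Its cluster mates Mir27b and Mir24-1 differed by 0.50 each (adjusted p = 0.313 and 0.210), with no overlap. Of the 306 genes 59 lay above the glands and 6 below, against 12.7% and 11.2% of all genes, and their median difference was 0.19. All 5 measured genes with the miR-30 seed GUAAACA in RefSeq's table lay above the glands, with a median of 0.53, a family picked after the values had been seen. Mir30e, the largest of them, was at 5.81, 5.20 and 6.04, then 6.11 and 6.24, against 4.61 and 4.09 (difference 1.53, adjusted p = 0.0685). Probesets on the gene do not separate the mature microRNA from its precursor. For the called gene's cluster and for miR-30 genes, 1 mature arm per gene is shown with bases 2 to 8, the seed, in capitals.

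miR-23b-5p: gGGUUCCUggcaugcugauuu
miR-27b-3p: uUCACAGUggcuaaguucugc
miR-24-3p: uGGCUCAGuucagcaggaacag
miR-30e-5p: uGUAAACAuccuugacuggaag
miR-30a-5p: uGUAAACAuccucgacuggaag
miR-30c-5p: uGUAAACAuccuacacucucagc

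The 3 cluster sequences shown have different seeds, but they mix the 5p arm of miR-23b with the 3p arms of miR-27b and miR-24. The opposite arms were not compared. The 3 miR-30 sequences, all 5p arms, share their seed and differ in the bases after it.

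A set of tuft cell genes was lower in every sorted array, and tuft cells are rare chemosensory cells of the gland. Rgs13, a regulator of G protein signalling, was at 3.69, 3.66 and 3.35 in chief arrays, 3.52 and 3.82 in parietal arrays and 6.92 and 7.34 in gland arrays. The sorted levels were low and close together, below the array medians. Its difference of -3.52 (SE 0.19, 11.5-fold lower, limma adjusted p = 0.000272) kept the call in all 7 fits with 1 array left out, with adjusted p between 0.000587 and 0.00687. Since an array measures a mixture, fewer cells of a type and less RNA per cell cannot be told apart here or in the cell types that follow.

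Of 20 tuft cell genes 8 were called lower and 0 higher, 12 lay below the glands without overlap and 1 above, and the median difference was -1.07. The 8 called genes lay between 3.35 and 5.59 in the sorted arrays and between 5.54 and 7.34 in the glands. They include the taste transduction genes Gnat3, a G protein subunit (difference -1.93, adjusted p = 0.00441), and Trpm5, a cation channel (-1.92, adjusted p = 0.0213). They also include the leukotriene enzymes Alox5 (-1.90, adjusted p = 0.00336), its activator Alox5ap (-1.93, adjusted p = 0.0306) and Ltc4s (-1.47, adjusted p = 0.0256). Some mast and white blood cell genes, Mcpt2, Cpa3 and Arhgdib, were also called lower. Which cell type the called genes of the tuft list come from was not tested. Dclk1, a kinase used as a tuft marker, was at 4.24, 4.71 and 4.43, then 4.40 and 4.78, against 6.82 and 7.16 (difference -2.48, adjusted p = 0.00275), but its second probeset, at a mean of 4.30, differed by 0.40. Avil, an actin-binding protein of the tuft, had a difference of -2.54 that missed the threshold (adjusted p = 0.0885), and Pou2f3, the factor that specifies the lineage, overlapped between groups (-0.53, adjusted p = 0.326). Another 4 called genes, Sh2d7, Spib, Pik3r5 and Fyb, were listed as tuft genes after their values had been seen. Their differences were -1.59, -1.41, -1.40 and -1.31. Because of this choice their calls are no further evidence on tuft cells, and their cell type was not tested either. The number called in the list of 20 fell to 1 without gland b and to 4 without chief c, parietal a or parietal b.

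**Figure D2:**
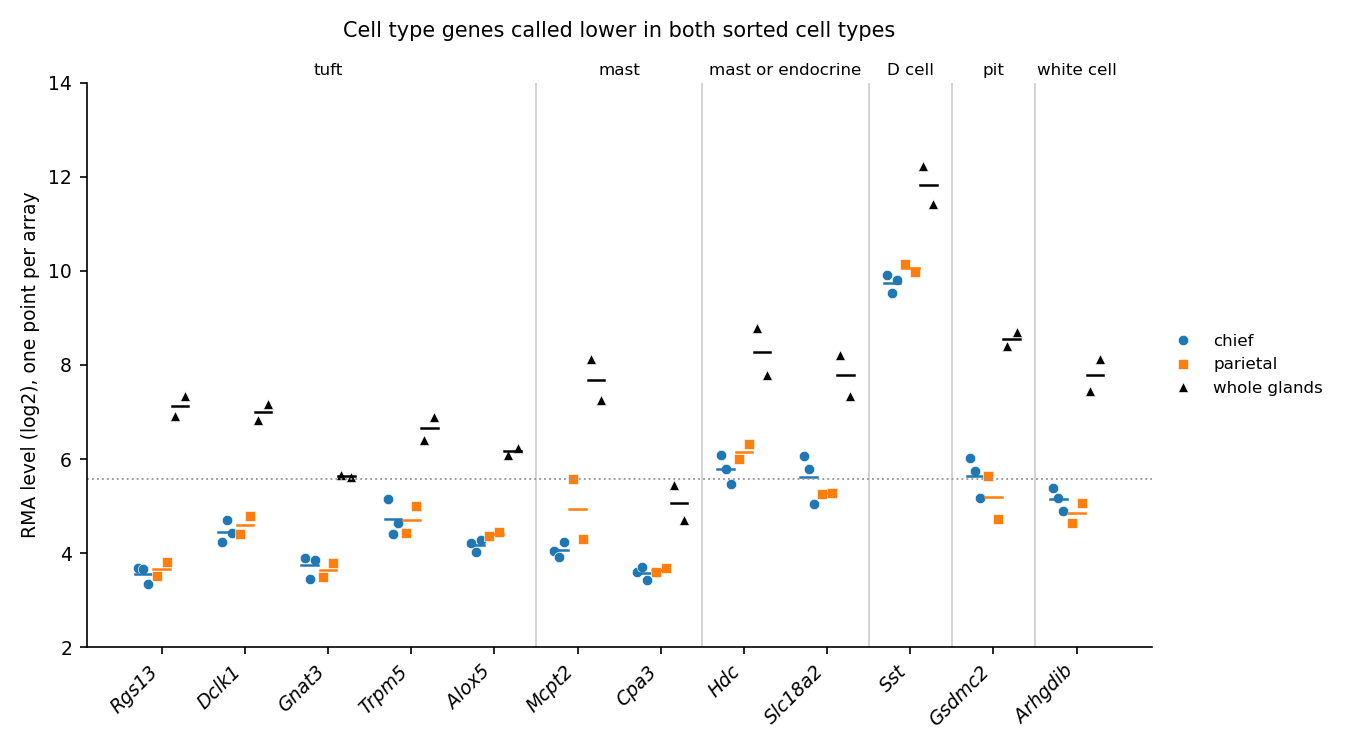
Log2 RMA levels of 12 cell type genes called lower in the sorted cells, 1 point per array (circles chief, squares parietal, triangles whole glands) with a bar at each group mean; the dotted line is the median level of all genes. Both gland points lie above all 5 sorted points for each gene, and the sorted points of the 5 tuft genes lie below the dotted line; Dclk1 is shown by its brighter probeset.

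Both called genes of the myeloid and mast cell list encode proteases known from mast cells. Mcpt2, a mucosal mast cell protease, was at 4.04, 3.92 and 4.23 in chief, 5.57 and 4.31 in parietal and 8.12 and 7.25 in gland arrays (difference -3.27, SE 0.45, 9.65-fold lower, limma adjusted p = 0.0227), and Cpa3, the mast cell carboxypeptidase, differed by -1.47 (adjusted p = 0.0278). Mcpt2 lost its call without chief c, parietal b, gland a or gland b, and Cpa3 without any of these or parietal a. Mcpt1, the neighbouring protease, was at 7.54 in gland a and 4.77 in gland b, against 3.70 to 4.16 in the sorted arrays (adjusted p = 0.133). In the organoids grown from sorted chief cells Mcpt2 was at 7.29 to 9.55 in ER medium, within or above the gland levels, and Cpa3 was at 3.15 to 3.25. These 2 were the called genes among 14 myeloid and mast cell genes, whose median difference was -0.04. Kit, a mast cell receptor that was also measured at 6.94 to 10.54 in the sorted arrays, overlapped with the glands. Arhgdib, which is abundant in white blood cells, was at 5.39, 5.17 and 4.89, then 4.65 and 5.07, against 7.44 and 8.12 (difference -2.75, SE 0.25, adjusted p = 0.00441). Ptprc, which defines white blood cells, lay between 3.96 and 4.57 in all 7 arrays, below the array medians, and Laptm5 between 4.39 and 4.94. Of 11 T cell, 7 B and plasma cell, 13 endothelial, 13 fibroblast, 11 smooth muscle and 9 enteric neural genes, 0 were called. Their list means in gland arrays a and b were 4.11 and 3.98 (T cell), 4.02 and 3.96 (B and plasma cell) and 4.52 and 4.45 (endothelial). They were 4.54 and 4.70 for fibroblast, 4.56 and 4.44 for enteric neural and 4.41 and 5.28 for smooth muscle genes. Low levels leave less room for a loss, though Lrrc3b and Dnajb7 were called lower from gland means of 4.71 and 4.965. Some list members were brighter than their list means. Snap25 (enteric neural) and Smtn (smooth muscle), with gland means of 6.545 and 7.46, lay below without overlap (limma adjusted p = 0.113 and 0.329). Vim and Fn1 (fibroblast) and Esam (endothelial), with gland means of 5.86, 5.935 and 6.13, overlapped. Whether losses were missed in dimmer genes was not tested.

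Enteroendocrine genes fell in part. Of 23, 3 were called lower and 0 higher, 13 lay below the glands without overlap, and the median was -0.61. Sst, the somatostatin of D cells, was at 9.92, 9.52 and 9.80 in chief, 10.14 and 9.98 in parietal and 12.22 and 11.42 in gland arrays (difference -1.95, SE 0.25, 3.86-fold lower, adjusted p = 0.0192). Hdc, which makes histamine, differed by -2.35 (SE 0.31, adjusted p = 0.0203) and Slc18a2, which loads it into vesicles, by -2.30 (SE 0.33, adjusted p = 0.0274). Enterochromaffin-like cells and mast cells both use these genes, so the list does not assign them to one cell type. Ghrl, the ghrelin gene, and Chga, a granule protein, lay below the glands with differences of -1.75 and -1.50 (adjusted p = 0.223 and 0.150). Gast, the gastrin gene of the antrum, overlapped, at 7.66 to 10.91 in the sorted arrays and 5.30 and 8.88 in the glands. Without chief c or gland b, 0 of the 23 genes were called, without parietal a or parietal b 1 was, and without gland a 2 were.

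Pit cell genes lay below the glands in 11 of 14 cases with a median of -2.22, the lowest among the cell type lists, but 1 was called. The number called was 7 without chief a, 3 without gland a and 0 without gland b. Gsdmc2, a gasdermin, was at 6.02, 5.74 and 5.17, then 5.65 and 4.73, against 8.41 and 8.70 (difference -3.09, SE 0.33, adjusted p = 0.0103). The main products of pit cells differed more within the sorted arrays. Muc5ac, the surface mucin, was at 12.01 in chief a and at 9.84 to 10.13 in the other sorted arrays, against 12.47 and 12.83 in the glands (difference -2.26, adjusted p = 0.113). Tff1, a trefoil peptide, was at 12.42 in chief a and 9.66 to 10.83 in the others, against 12.79 and 13.08 (adjusted p = 0.150), and Gkn1, a gastrokine, at 11.84 and 8.55 to 9.75, against 12.46 and 12.80 (adjusted p = 0.123). The spread in these genes sits mostly in chief array a, which was the highest sorted array for 89 of the 149 genes called lower. Mucous neck cell genes showed no common direction, with 0 of 6 called. Galnt6, a mucin glycosyltransferase, had a difference of -2.71 (adjusted p = 0.123) and Gkn3, a gastrokine of neck cells, 1.97 (adjusted p = 0.117).

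Proliferation genes lay below the glands in 9 of 20 cases, and 0 were called, with a median of -1.38. Ccnb2, a mitotic cyclin, was at 9.15, 9.62 and 7.73 in chief, 7.03 and 6.48 in parietal and 10.00 and 10.18 in gland arrays (difference -2.09, adjusted p = 0.248). Mki67 overlapped, because chief b, at 9.96, was above both glands, at 9.33 and 9.49. Of 7 pancreatic acinar genes 1 was called lower, Cel, a lipase (-2.63, adjusted p = 0.0391), while Cela1, an elastase also made by chief cells, lay above the glands (1.47, adjusted p = 0.111).

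**Figure D3:**
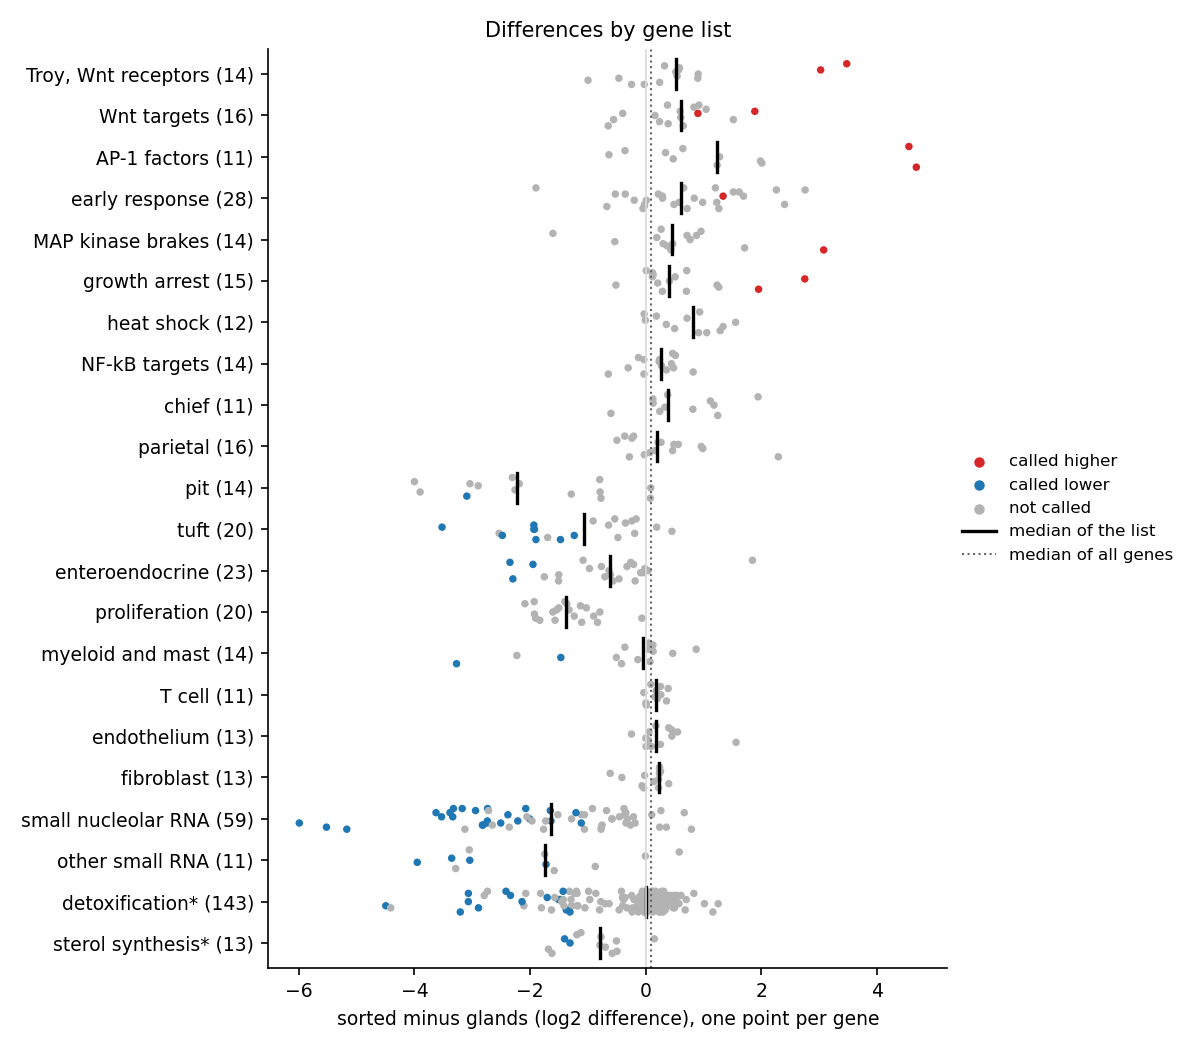
Sorted minus glands difference (log2) for each gene of 22 lists, with the number measured in brackets; red and blue points are genes called higher and lower, grey points are not called, black bars are list medians and the dotted line is the median of all genes (0.09). Lists with an asterisk were drawn up after values had been seen. Called genes appear on 1 side within each list, and the medians of the pit list and both small RNA lists lie lowest.

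Small noncoding RNAs held the largest and second largest negative differences among called genes, Snora33 and Snord118. Most small nucleolar RNAs guide the modification of ribosomal and spliceosomal RNA. Of 59 small nucleolar and Cajal body RNAs 24 were called lower and 0 higher, 41 lay below the glands and 1 above, and the median difference was -1.64. Together with 4 other small RNAs they were 28 of the 149 genes called lower. Snora33 was at 4.18, 4.39 and 4.04 in chief, 4.25 and 4.68 in parietal and 10.40 and 10.20 in gland arrays (difference -5.99, SE 0.20, 63.6-fold lower, limma adjusted p = 1.07e-05). Snora69 was at 5.13, 4.98 and 5.08, then 5.18 and 4.78, against 10.32 and 10.08 (difference -5.17, SE 0.17, adjusted p = 1.07e-05). Snord118, the U8 RNA, was at 4.96, 5.07 and 4.48, then 4.72 and 4.71, against 10.77 and 9.85 (difference -5.52, SE 0.27, adjusted p = 0.000156), and a second probeset gave identical values. These 3, with Snora61, Snora34 and Snora3, kept the call in all 7 fits. The number called in the list was 6 without gland b, 8 without gland a or chief c, 9 without parietal b and 12 without parietal a.

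Most of these RNAs are cut from introns of other genes, and the host genes differed less. RefSeq places 58 of the 59 within another gene, and for 35 of them the host was measured, as 30 distinct hosts. Of these hosts 0 were called, 5 lay below and 1 above the glands, and the median host difference was -0.13, while the 35 small RNAs had a median of -1.64. For 29 of the 35 the small RNA was lower than its host. Snora33 lies in Rps12, a ribosomal protein gene with a difference of -0.16. Snora69 lies in Rpl39, also a ribosomal protein gene (-0.26), and Snord47 (-3.63) in Gas5, a noncoding host (-0.56). H/ACA RNAs, which guide pseudouridylation, had 16 of 26 called, and C/D RNAs, which guide methylation, 8 of 30.

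**Figure D4:**
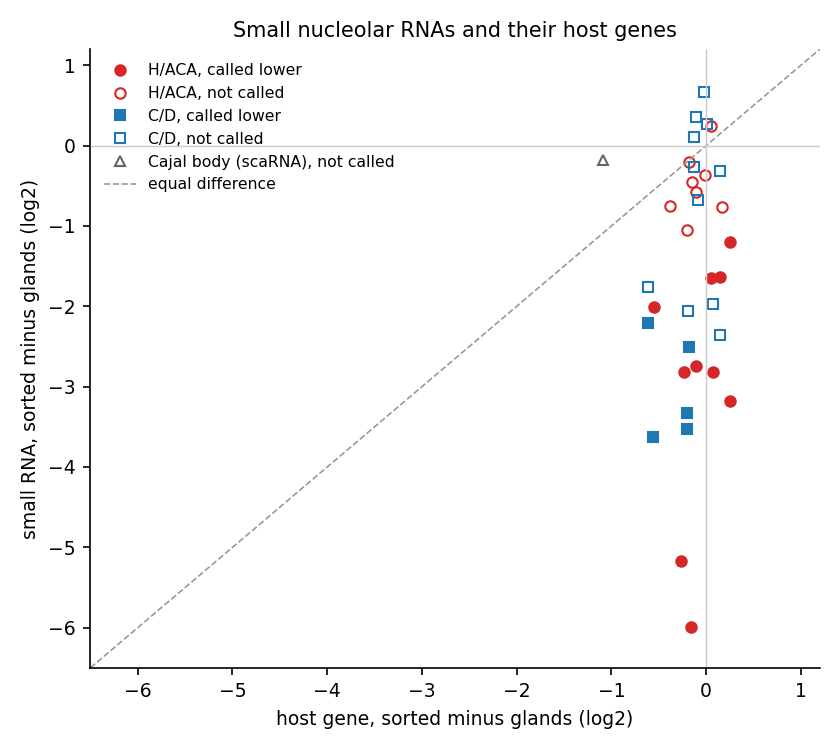
Sorted minus glands difference (log2) of 35 small nucleolar and Cajal body RNAs against that of the gene each lies in; red circles are H/ACA and blue squares C/D RNAs, filled where called lower, the triangle is a Cajal body RNA, and the dashed line marks equal differences. Hosts lie within -1.08 and 0.26 while the small RNAs reach -5.99.

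Other small RNAs varied. Vaultrc5, a vault RNA, was at 4.52, 3.84 and 3.41, then 3.99 and 3.56, against 7.90 and 7.73 (difference -3.95, SE 0.29, adjusted p = 0.00184). Rnu3a, the U3 RNA that processes ribosomal RNA, differed by -3.35 (adjusted p = 0.00916), Rny1, a Y RNA, by -3.04 (adjusted p = 0.0359) and Rnu12, of the minor spliceosome, by -1.72 (adjusted p = 0.0156). In all 4 of 11 such genes were called lower and 9 lay below the glands. Rn7sk, the 7SK RNA that holds back transcription elongation, lay between 12.95 and 13.12 in all 7 arrays (difference -0.003, SE 0.14). Its level was as high as that of Atp4b, and whether a difference would show at such levels was not tested. Scarna13, a Cajal body RNA, ran against the rest with 0.79 (adjusted p = 0.0843). Ribosome assembly proteins gave 0 of 17 called and a median of -0.19. RNA of every array was isolated with Trizol and purified on RNeasy columns. Across the 59 small nucleolar and Cajal body RNAs, which share their arrays, length (53 to 275 bases) and difference had r = -0.09, with -0.31 over the 30 C/D and -0.07 over the 26 H/ACA RNAs. The part of RNA length in these differences was not tested. Family members with near-identical sequence, such as Snora73a and Snora73b (-2.75 and -2.73), cannot be separated on these probesets.

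The rest of the genes called lower held enzymes, cytokines and secretory genes, grouped here after their values had been seen. Of 143 detoxification enzymes 14 were called lower and 0 higher, while the list's median was 0.00, so the difference sat in a minority of the genes. Aldh3a1, an aldehyde dehydrogenase, was at 7.42, 5.99 and 4.71 in chief, 5.33 and 5.00 in parietal and 9.47 and 10.90 in gland arrays (difference -4.50, SE 0.71, adjusted p = 0.0344). Gsta3, a glutathione transferase, differed by -3.21 (adjusted p = 0.0156), Akr1c19 by -3.07 (adjusted p = 0.0246), Sult1b1, a sulfotransferase, by -3.07 (adjusted p = 0.0373), and Aox3, an aldehyde oxidase, by -2.42 (adjusted p = 0.00271). Without gland b 0 of the 14 kept the call, without chief c or parietal b 1 enzyme of the list was called, and without parietal a 2 were.

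Among the 10 largest negative differences were also Mogat1, a monoacylglycerol acyltransferase (-5.21, adjusted p = 0.0156), Il33, an alarmin of epithelial nuclei (-4.02, adjusted p = 0.0192), Sytl2, which tethers secretory granules (-3.99, adjusted p = 0.0422), Plac8 (-3.81, adjusted p = 0.0156) and Anxa3, an annexin (-3.71, adjusted p = 0.0344). Each was highest in chief array a among the sorted arrays. Il33 was at 5.59 there and at 4.11 to 4.60 in the others, against 7.71 and 9.49 in the glands. Il18 and Cxcl17, both epithelial cytokines, and Tlr4, the endotoxin receptor, were called too (-3.17, -2.72 and -2.84). Of 22 synaptotagmin family genes 4 were called lower, and besides Sytl2 these were Syt8, Syt16 and Syt5 (-3.15, -3.00 and -1.78). Sqle and Msmo1 of sterol synthesis differed by -1.40 and -1.31, and 10 of 13 sterol genes lay below the glands. The synaptotagmin and sterol lists each had 0 called genes without chief c, parietal a, parietal b or gland b, and the sterol list had 6 without chief a and 1 without chief b or gland a.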

How the data were processed

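The authors deposited log2 expression values made with RMA in Affymetrix Power Tools, per the submitters' processing notes. Their versions and the array's annotation build were not given in the sources used here. Of 35556 probesets, 21218 carried 1 gene symbol, 1881 several and 12457 none, and 21185 matched RefSeq. The brightest single-symbol probeset stood for each of 18820 genes. Sorted and gland arrays (5 against 2) were compared with limma 3.58.1 in R 4.3.3, with statmod 1.5.0 loaded. Adjustment was Benjamini-Hochberg over all genes, and the script was tested on simulated data. In the fit with a replicate block the letter was a fixed term. A call needed an adjusted p under 0.05 and no overlap. The rule for named genes took Tnfrsf19, Atf3 and Rgs13, the 10 largest called differences each way, and up to 5 called genes of each list (the 2 brightest where none was called, given only for lists described). Other genes in the text were chosen after their values were seen. Members and lists were chosen with earlier results of these data known. The detoxification, sterol, synaptotagmin and added tuft lists, the chief minus parietal test, the TCF motif and the organoid levels were added after seeing the data. Replicate letters were checked for pairing. For deviations from group means, r of same-letter arrays was 0.263 and 0.111 (chief with parietal), -0.194 and 0.0694 (chief with glands) and 0.0267 for both letters (parietal with glands). Groups of 2 arrays deviate as mirror images, so this check says little, and letters were not used as pairs. The number of arrays limits the precision.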

Additional observations from a re-analysis of the deposited data

Results flagged for a closer look

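Among the 5 sorted arrays, 15 of 164 genes examined had 1 array far from the other 4, by Dixon's test with a critical value of 0.71. Chance alone marks about 1 in 20 groups drawn from a single population. The sorted arrays mix chief and parietal cells, and the genes share arrays and were partly chosen by their values. The 15 of 164 can therefore not be read against that share. In 11 of the 15 the array was chief a, and it was the highest. Its levels were 12.01 for Muc5ac, 10.50 for Lypd8 and 6.31 for Capn9, all in the pit cell list. For the enzymes they were 11.08 for Gsto1, 8.99 for Akr1c14, 7.24 for Cbr3, 6.38 for Mogat1 and 8.29 for Sqle. Il18 was at 7.37, Plac8 at 6.58 and Syt16 at 5.45 in the same array. In each of these 11 genes both gland arrays were higher still. Chief b stood out for Krt5 at 11.85, chief c for Socs3 at 9.03, parietal a for Mcpt2 at 5.57 and parietal b for Il25, a tuft cell cytokine, at 4.78.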

How the results depend on the processing

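The counts depended on the fit. That called genes kept their direction with arrays left out, weighted or averaged follows from the rule that the groups must not overlap. Against 24 genes called higher and 149 lower, array weights gave 639 and 1280, all 13 arrays in 1 fit 674 and 1296, averaged chief and parietal means 57 and 274, and an adjusted p under 0.1 gave 91 and 343. Leaving out dim genes, so that 9411 were tested, gave 16 called higher and 95 lower. Of the 118 called genes still tested, 111 kept the call. With the replicate block, in which the letter is the block and chief c drops out, 0 genes were called higher and 8 lower. Whether the letters pair the arrays was not settled. Leaving out 1 array in turn gave 0 to 65 called higher and 12 to 273 lower. The cause of these changes was not tested. In 3 uncalled genes the sign turned. Pgc was -0.0584 after repeated quantile normalization. Kit was -0.044 without gland b, 1.052 without chief b and 1.13 with array weights. Rn7sk was 0.046 with the mean of its probesets, 0.0017 with averaged means and with 13 arrays, 0.0225 with the replicate block, and -0.038 to 0.032 with 1 array left out. Over 164 genes, 2052 values kept direction and side of the threshold, 396 lost the call and 121 gained one. Only 2 gland arrays limit what can be called.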

Other observations

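The 6 organoid arrays came from a separate experiment, so batch and group cannot be told apart, and their levels are given without a test. They were set beside the glands after the data had been seen. The share of all genes above or below the glands in the organoids was not counted. The genes were called against these same gland arrays, so lying on the same side is partly built in. Of all 149 genes called lower, 84 were below both gland arrays in all 6 organoid arrays and 13 were above. All 24 small nucleolar and Cajal body RNAs called lower in sorted cells were below both gland arrays in all 6 organoid arrays, with a median level of 6.01 against 5.585 in sorted cells and 9.08 in glands. Snora33 lay between 4.38 and 5.68 and Snord118 between 4.28 and 4.60 in the organoids. Of 12 called genes listed as tuft cell genes, 4 of them chosen after their values had been seen, 11 were below both gland arrays in the organoids. Rgs13 lay between 5.08 and 6.05. Of 14 called detoxification enzymes 5 were below, and Aldh3a1 was at 7.35 to 9.16 in EGFNWR medium and at 10.33 to 10.86 in ER medium.

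Of the 24 genes called higher in sorted cells, 9 were above both gland arrays in all 6 organoid arrays and 3 were below. Atf3 lay between 7.93 and 9.02, above the glands at 6.78 and below the sorted cells, while Fosb lay between 4.91 and 5.37, below both gland arrays. Lgr5 was at 9.54 to 10.05 in EGFNWR medium and 4.33 to 7.80 in ER medium. Tnfrsf19 was at 6.96 to 7.63 and 4.37 to 5.68, and Axin2 at 6.47 to 7.30 and 4.06 to 5.11, in the same order.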
